A study of Mus musculus with 16 samples.

Results

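Stbd1, the gene of starch-binding domain-containing protein 1, was examined together with 8 genes of glycogen synthesis and breakdown, 9 of the 55573 genes listed for mouse ventricles. Stbd1 was chosen for its values: it was among the genes that were lowest after TAC in control hearts and highest with Trbp deletion after TAC. The other 8 genes, Gyg, Gys1, Gbe1, Ppp1r3c, Pygm, Pygb, Phka1 and Gaa, were chosen for what their products do, with earlier results of these data known. All 9 passed the filter on low counts, which left 19955 genes to be tested.

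Gene expression was profiled by RNA-seq in 16 male hearts, 4 in each of 4 groups. All mice, controls included, carried floxed alleles of Trbp and a tamoxifen-dependent Cre (aMHC-MerCreMer; Trbp-Flox/Flox) that the alpha-myosin heavy chain promoter expresses in cardiomyocytes. Trbp-cKO mice received tamoxifen at 30 mg/kg daily for 5 days from 4 weeks of age and control mice received corn oil. Ventricles were collected about 8 weeks after sham surgery or TAC, a ligature around the aorta that raises the pressure load on the left ventricle. The groups are called control sham, control TAC, Trbp-cKO sham and Trbp-cKO TAC. Because no control mouse among these 16 received tamoxifen, deletion of Trbp cannot be told apart from tamoxifen itself or from active Cre. Mice without the Cre transgene that received tamoxifen are part of the study and were not analysed here.

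Glycogen is the branched glucose polymer that cardiomyocytes keep as a local fuel store. Glycogenin starts the chain, glycogen synthase extends it and branching enzyme adds the branches, while phosphorylase releases glucose units in the cytosol after phosphorylase kinase has activated it. A separate route leads through the lysosome, where acid alpha-glucosidase digests glycogen. Stbd1 binds glycogen and membranes and has been described as the receptor that hands glycogen to this lysosomal route, a process known as glycophagy.

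The promoters of Stbd1, Gyg and Ppp1r3c are shown, since the results turn on these 3 members. All 9 members had a window of 300 bases, 250 before to 50 after the transcription start, in the RefSeq table for GRCm38.p6. The windows lie at chr5:92602801-92603100 on the plus strand for Stbd1, at chr3:20155067-20155366 on the minus strand for Gyg and at chr19:36736555-36736854 on the minus strand for Ppp1r3c. They are written 5′ to 3′ along the gene, and capitals mark matches on either strand to the E-box CACGTG, the CCAAT box CCAAT and the GC box GGGCGG.
Stbd1: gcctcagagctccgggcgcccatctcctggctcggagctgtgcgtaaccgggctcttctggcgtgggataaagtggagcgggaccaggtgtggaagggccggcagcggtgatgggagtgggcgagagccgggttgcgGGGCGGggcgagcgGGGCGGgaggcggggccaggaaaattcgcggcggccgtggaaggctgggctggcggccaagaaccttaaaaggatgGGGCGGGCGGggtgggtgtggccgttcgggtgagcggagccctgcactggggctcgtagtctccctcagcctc
Gyg: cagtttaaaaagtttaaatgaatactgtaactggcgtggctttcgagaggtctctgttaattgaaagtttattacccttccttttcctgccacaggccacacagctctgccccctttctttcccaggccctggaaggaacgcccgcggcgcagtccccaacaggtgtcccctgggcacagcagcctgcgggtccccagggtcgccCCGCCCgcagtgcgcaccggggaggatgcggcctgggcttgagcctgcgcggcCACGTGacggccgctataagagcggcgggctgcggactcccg
Ppp1r3c: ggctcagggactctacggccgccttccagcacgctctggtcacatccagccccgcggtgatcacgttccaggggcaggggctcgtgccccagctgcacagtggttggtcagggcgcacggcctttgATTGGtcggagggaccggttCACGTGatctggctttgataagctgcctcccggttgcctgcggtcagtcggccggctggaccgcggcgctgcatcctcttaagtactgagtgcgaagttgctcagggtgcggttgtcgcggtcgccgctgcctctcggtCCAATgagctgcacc

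The Stbd1 window held 4 GC boxes, of which the last 2 overlap each other, and none of the other 2 motifs. The Gyg window held 1 E-box and 1 GC box, and the Ppp1r3c window held 1 E-box and 2 CCAAT boxes. Among the 9 members the E-box was present in 3 (Gaa, Gyg and Ppp1r3c), the CCAAT box in 2 (Gys1 and Ppp1r3c) and the GC box in 5 (Gbe1, Gyg, Gys1, Phka1 and Stbd1). Of 32851 promoter windows of this length, 7.15% held the E-box, 37.4% the CCAAT box and 35.7% the GC box. No match of 1 motif overlapped a match of another in these windows. The letters describe the windows and do not show that a factor was bound there.

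Some hearts stood apart before any member was examined. The mitochondrial chromosome took 38.2% and 38.8% of the counts in control TAC hearts 1 and 2, and between 18.2% and 26.3% in the other 14 hearts. The summed CPM (counts scaled to the adjusted library size) of 8 cardiomyocyte markers lay between 56005 and 61227 in control sham hearts, and was 25712 and 20314 in control TAC hearts 1 and 2 against 53565 and 54008 in hearts 3 and 4. Within the Trbp-cKO groups it was lowest in sham heart 3 (46125) and TAC heart 4 (31942). Transcripts of Tarbp2, which encodes Trbp, lay between 7.14 and 11.4 CPM in Trbp-cKO hearts and between 21.1 and 33.3 CPM in controls. Total counts per heart ranged from 45166994 to 68274222. In whole ventricle, fewer cells of a type and less RNA per cell cannot be told apart.

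Stbd1 (ENSMUSG00000047963; chr5:92603041-92606579, plus strand, GRCm38) was low in every control TAC heart. Its level was 8.79, 12.2, 12.0 and 16.2 CPM in control sham hearts and 1.44, 1.48, 2.19 and 1.53 CPM in control TAC hearts. Trbp-cKO hearts held 14.5, 13.5, 13.5 and 12.1 CPM after sham surgery and 25.4, 27.0, 16.6 and 13.0 CPM after TAC. The control TAC hearts lay below all of the other 12 hearts, while the 2 sham groups overlapped, and the range of the Trbp-cKO TAC hearts began within that of the Trbp-cKO sham hearts. Between 78 and 132 counts stood behind each control TAC value, and at least 551 behind each of the others.

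**Figure D1:**
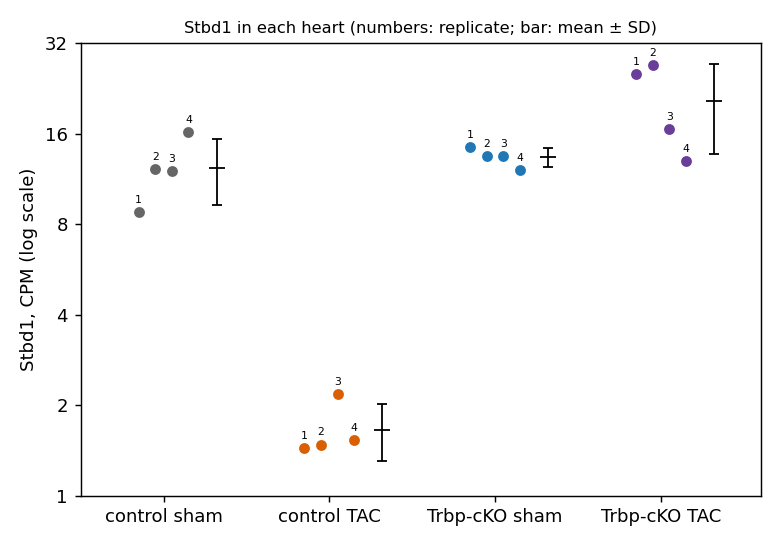
Stbd1 in each of the 16 hearts, in CPM on a log axis, with the replicate number above each point and the mean ± SD of 4 hearts beside each group. The control TAC hearts sit between 1.44 and 2.19 CPM, and no heart of another group is below 8.79 CPM.

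The mean level of Stbd1 in control hearts was 12.3 ± 3.05 CPM after sham surgery and 1.66 ± 0.354 CPM after TAC (SD, n = 4). Trbp-cKO hearts had means of 13.4 ± 0.971 and 20.5 ± 6.77 CPM. On the log2 scale Stbd1 differed by -2.89 (SE 0.24) between control TAC and control sham hearts and by 3.62 (SE 0.25) between Trbp-cKO TAC and control TAC hearts. It differed by 0.12 (SE 0.22) between the 2 sham groups and by 0.61 (SE 0.22) between Trbp-cKO TAC and Trbp-cKO sham hearts. No p is given for Stbd1, because the differences that chose it share hearts with all of the others. The position of Stbd1 among all genes restates how it was chosen and is given as a description. The genes ranked were past both thresholds (adjusted p of at most 0.05 and at least 0.8 on the log2 scale). They also did not overlap between groups and had a symbol and a mean log2 CPM of at least 1. Of these, 156 were lower after TAC in control hearts, and only Scd4, a stearoyl-CoA desaturase, lay below Stbd1 (-3.45, SE 0.64). The next gene after Stbd1 was Thbs1 (-2.64, SE 0.50). Among the 203 genes that met the same conditions and were higher in Trbp-cKO TAC than in control TAC hearts, Stbd1 came before all others, and Cilp2 followed (3.20, SE 0.63).

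Stbd1 was set beside the markers of the hearts that stood apart. Trbp-cKO TAC heart 4, with the lowest cardiomyocyte marker sum of its group, also had the lowest Stbd1 of its group, and the part of the marker difference in this value was not tested. Control TAC hearts 3 and 4, whose cardiomyocyte marker sums were near those of sham hearts, had 2.19 and 1.53 CPM of Stbd1, and hearts 1 and 2 had 1.44 and 1.48. With control TAC hearts 1 and 2 left out of the fit, a choice made after seeing the data, Stbd1 differed by -2.73 (SE 0.33) between control TAC and control sham hearts and by 3.45 (SE 0.34) between Trbp-cKO TAC and control TAC hearts. Per 100000 CPM of cardiomyocyte markers, Stbd1 lay between 2.83 and 7.28 in control TAC hearts against 15.7 to 28.4 in control sham hearts. Trbp-cKO hearts held 22.2 to 29.3 on this scale after sham surgery and 32.8 to 54.1 after TAC. Trbp-cKO TAC heart 4 held 40.8 on this scale, and the lowest value of its group was that of heart 3. Skeletal muscle also holds much glycogen. Its 6 markers summed to between 1.34 and 3.57 CPM over all hearts, and Myh4 had no count in any control heart. The sum lay between 1.42 and 2.47 CPM in control TAC and between 2.19 and 3.57 CPM in Trbp-cKO TAC hearts. Between these groups Tnnt3 differed by 1.32 and Pvalb by 0.22 on the log2 scale, and 1 of these 2 tested markers rose. The 3 atrial markers summed to between 1.21 and 2.15 CPM in control TAC and between 4.33 and 7.85 CPM in Trbp-cKO TAC hearts, without overlap. The 4 smooth muscle markers (Myh11, Tagln, Acta2 and Cnn1) summed to between 208 and 346 CPM in control sham and between 130 and 187 CPM in control TAC hearts, and to between 444 and 672 and between 394 and 835 CPM in Trbp-cKO sham and TAC hearts. Acta2 carried this sum: it differed by -1.27 on the log2 scale between control TAC and control sham hearts, whereas Myh11 (0.15), Tagln (0.53) and Cnn1 (0.65) lay above 0. Between Trbp-cKO TAC and control TAC hearts Acta2 differed by 2.35, Cnn1 by 0.90, Tagln by 0.44 and Myh11 by -0.15, and 2 of these 4 rose. The part of the skeletal muscle, atrial and smooth muscle differences in the result was not tested.

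The groups also differed in clock genes, whose transcripts follow the time of day. The clock score was the mean log2 CPM of 8 genes of 1 phase less that of 3 genes of the opposite phase. It was centred on its mean over all hearts. The score lay between -2.04 and -0.87 in control sham hearts and between -0.23 and 0.84 after TAC. It lay between 1.22 and 1.53 in Trbp-cKO sham hearts and between -1.63 and 0.91 after TAC. In Trbp-cKO TAC hearts 1 and 2, which had the most Stbd1 of their group, it was 0.88 and 0.91. In hearts 3 and 4, which had less, it was -1.63 and -1.07. With the score as a covariate, Stbd1 differed by -3.48 between control TAC and control sham hearts, and by -0.79 between the 2 sham groups, against 0.12 without it. In both comparisons the score did not overlap between the groups. The values with the covariate thus extend a slope seen within groups beyond the scores the groups share. The part of collection time in these differences was not tested.

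Glycogenin and glycogen synthase begin and extend the chain. Gyg (ENSMUSG00000019528; chr3:20122084-20155317), the gene of glycogenin, was at 121, 127, 133 and 121 CPM in control sham hearts and at 91.5, 79.0, 146 and 160 CPM in control TAC hearts. It was at 126, 121, 98.9 and 112 CPM in Trbp-cKO sham hearts and at 262, 265, 295 and 192 CPM in Trbp-cKO TAC hearts. Every Trbp-cKO TAC heart lay above every heart of the other groups, including heart 4 with its low cardiomyocyte markers.

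Gyg rose by 1.14 on the log2 scale with TAC in Trbp-cKO hearts (SE 0.20, 2.21-fold, edgeR quasi-likelihood test, adjusted p = 0.00174), and was higher in Trbp-cKO TAC than in control TAC hearts by 1.09 (SE 0.20, 2.13-fold, adjusted p = 0.00578). The exact permutation test gave 0.0286 in each case, the smallest two-sided p that 4 hearts against 4 allow. Gyg differed by -0.07 (SE 0.20, adjusted p = 0.838) between control TAC and control sham hearts and by -0.13 (SE 0.20, adjusted p = 0.858) between the sham groups. The interaction, the change with TAC in Trbp-cKO hearts less that in control hearts, was 1.22 (SE 0.28) with an adjusted p = 0.0504, which was not past the threshold of 0.05. Without control TAC hearts 1 and 2 the difference between Trbp-cKO TAC and control TAC hearts was 0.72 (SE 0.16, adjusted p = 0.0204 by edgeR). The call between the TAC groups was lost when only these 2 groups were fitted (1.08, adjusted p = 0.130 by edgeR). The 5 fibroblast markers summed to between 531 and 606 CPM in control sham and between 645 and 1099 CPM in control TAC hearts, and to between 678 and 870 and between 906 and 1326 CPM in Trbp-cKO sham and TAC hearts. With TAC in Trbp-cKO hearts the collagen gene Col1a1 differed by 1.74 on the log2 scale and the other 4 markers by -0.25 to 0.19. In the same comparison the smooth muscle markers Cnn1 and Tagln differed by 1.29 and 0.82, and Myh11 and Acta2 by -0.02 and -0.10. The atrial markers Myl7 and Myl4 differed by 2.40 and 1.32, and the atrial sum was at most 2.95 CPM after sham surgery and at least 4.33 CPM after TAC. Marker transcripts do not show whether more of these cells were present. The part of these marker differences in the Gyg difference was not tested.

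Gys1 (ENSMUSG00000003865; chr7:45434844-45456619), the muscle form of glycogen synthase, did not pass the test in any comparison. It was at 80.3, 92.0, 98.6 and 93.6 CPM in control sham and at 25.1, 21.6, 83.8 and 91.2 CPM in control TAC hearts. It was at 90.9, 116, 60.6 and 101 CPM in Trbp-cKO sham and at 86.0, 90.3, 83.2 and 40.7 CPM in Trbp-cKO TAC hearts. The low hearts were those with low cardiomyocyte markers, and the groups overlapped in all comparisons. Gys1 shares 310 exonic bases with Ruvbl2 on the opposite strand, and since strand in the counting is not given in the sources used here, some reads could belong to either. The liver form, Gys2, had at most 10 counts in a heart and was not tested.

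Gbe1 (ENSMUSG00000022707; chr16:70313949-70569716), the branching enzyme, was at 39.2, 46.8, 50.6 and 42.4 CPM in control sham and at 17.7, 13.7, 49.4 and 46.9 CPM in control TAC hearts. Trbp-cKO hearts held 46.7, 53.6, 29.5 and 47.1 CPM after sham surgery and 76.0, 65.4, 66.7 and 37.5 CPM after TAC. Trbp-cKO TAC hearts 1 to 3 lay above all other hearts, and heart 4 lay among them. The difference from control TAC hearts was 0.94 (SE 0.35) with an adjusted p = 0.129, and that from Trbp-cKO sham hearts was 0.47 (SE 0.35) with an adjusted p = 0.472, by edgeR.

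Ppp1r3c (ENSMUSG00000067279; chr19:36731731-36736653) encodes PTG, a subunit that brings protein phosphatase 1 to glycogen, where it activates synthase and restrains phosphorylase. It was at 137, 168, 171 and 152 CPM in control sham and at 68.3, 74.8, 135 and 172 CPM in control TAC hearts. It was at 106, 91.6, 62.5 and 101 CPM in Trbp-cKO sham and at 186, 187, 254 and 158 CPM in Trbp-cKO TAC hearts. All Trbp-cKO sham hearts lay below all control sham hearts and below all Trbp-cKO TAC hearts.

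Ppp1r3c rose by 1.12 with TAC in Trbp-cKO hearts (SE 0.26, 2.17-fold, edgeR adjusted p = 0.0131; exact permutation p = 0.0286). Between the sham groups it differed by -0.80 (SE 0.26) with an adjusted p = 0.153, so the difference did not pass although the groups did not overlap. It passed there when only the 2 sham groups were fitted and when control TAC hearts 1 and 2 were left out (adjusted p = 0.0270). Between Trbp-cKO TAC and control TAC hearts it differed by 0.80 (SE 0.26, adjusted p = 0.0867), and the interaction was 1.60 (SE 0.37, adjusted p = 0.0504). With the clock score as a covariate the difference with TAC in Trbp-cKO hearts was 1.24 (SE 0.34) and no longer passed (adjusted p = 0.0582), and the part of collection time in it was not tested.

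Pygm and Pygb, the muscle and brain forms of glycogen phosphorylase, had the highest levels of the members. Per kilobase of exon, Pygm stood at 329 ± 21.4 and Pygb at 129 ± 12.9 CPM in control sham hearts (SD, n = 4), before Ppp1r3c at 57.6 ± 5.66, Gyg at 53.6 ± 2.39, Gaa at 26.5 ± 1.26, Gys1 at 19.0 ± 1.63, Gbe1 at 8.36 ± 0.93, Phka1 at 5.72 ± 0.63 and Stbd1 at 5.54 ± 1.37. The neighbours Ppp1r3c and Gyg, and Phka1 and Stbd1, lay within their spread of each other. With the longest transcript as the length, both pairs changed order: Gyg stood at 65.4 above Ppp1r3c at 57.6, and Stbd1 at 6.20 above Phka1 at 5.86 CPM per kilobase. In control TAC hearts Stbd1 stood at 0.746 ± 0.160 CPM per kilobase.

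Pygm (ENSMUSG00000032648; chr19:6384399-6398459) was at 968, 1116, 1109 and 1041 CPM in control sham and at 284, 207, 917 and 912 CPM in control TAC hearts. It was at 970, 1076, 655 and 983 CPM in Trbp-cKO sham and at 773, 899, 819 and 305 CPM in Trbp-cKO TAC hearts. Each group thus held hearts far below the rest except control sham, and these were the hearts with low cardiomyocyte markers. All control TAC hearts lay below all control sham hearts, with a difference of -0.87 (SE 0.42, edgeR adjusted p = 0.201), which became -0.21 (SE 0.32) without control TAC hearts 1 and 2.

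Pygb (ENSMUSG00000033059; chr2:150786735-150831758) was at 620, 705, 555 and 611 CPM in control sham and at 121, 93.8, 588 and 607 CPM in control TAC hearts. It was at 508, 497, 203 and 401 CPM in Trbp-cKO sham and at 420, 381, 395 and 161 CPM in Trbp-cKO TAC hearts. Both Trbp-cKO groups lay entirely below the control sham hearts, but the difference between the sham groups was -0.63 with a large error (SE 0.51, edgeR adjusted p = 0.673). Of the phosphorylase transcripts per length (Pygm, Pygb and the liver form Pygl), Pygb made up 28.2% ± 2.25 in control sham and 26.5% ± 4.49 in control TAC hearts (SD, n = 4). Its share of Trbp-cKO phosphorylase transcripts was 22.0% ± 3.74 after sham surgery and 24.7% ± 2.02 after TAC.

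Phka1 (ENSMUSG00000034055; chrX:102513975-102644246), the muscle alpha subunit of phosphorylase kinase, did not pass in any comparison by the edgeR fit with TMM scaling. It lay between 33.0 and 41.6 CPM in control sham hearts and between 24.6 and 36.9 CPM after TAC. Trbp-cKO hearts held 28.3 to 46.8 CPM after sham surgery and 34.2 to 46.4 CPM after TAC. The largest of its differences, between Trbp-cKO TAC and control TAC hearts, was 0.41 (SE 0.16, edgeR adjusted p = 0.163). With library size only, Phka1 passed in that comparison.

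Gaa (ENSMUSG00000025579; chr11:119267887-119285454), the acid alpha-glucosidase of the lysosome, was at 119, 125, 131 and 132 CPM in control sham and at 56.7, 60.1, 97.4 and 106 CPM in control TAC hearts. It was at 99.3, 118, 89.7 and 114 CPM in Trbp-cKO sham and at 103, 111, 114 and 79.5 CPM in Trbp-cKO TAC hearts. The hearts of these 3 groups all lay below the lowest control sham heart. Gaa fell by 0.66 with TAC in control hearts (SE 0.19, 0.631-fold, edgeR adjusted p = 0.0477). The 8 cardiomyocyte markers had a median difference of -0.59 in the same comparison. Per 100000 CPM of these markers Gaa lay between 204 and 231 in control sham and between 182 and 296 in control TAC hearts, so on that scale the groups overlapped. This call was close to the threshold: of 16 fits that each left out 1 heart it held in 3 (without control TAC heart 3 or 4 or Trbp-cKO TAC heart 4), and without control TAC hearts 1 and 2 the difference was -0.32 (SE 0.15, adjusted p = 0.499).

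**Figure D2:**
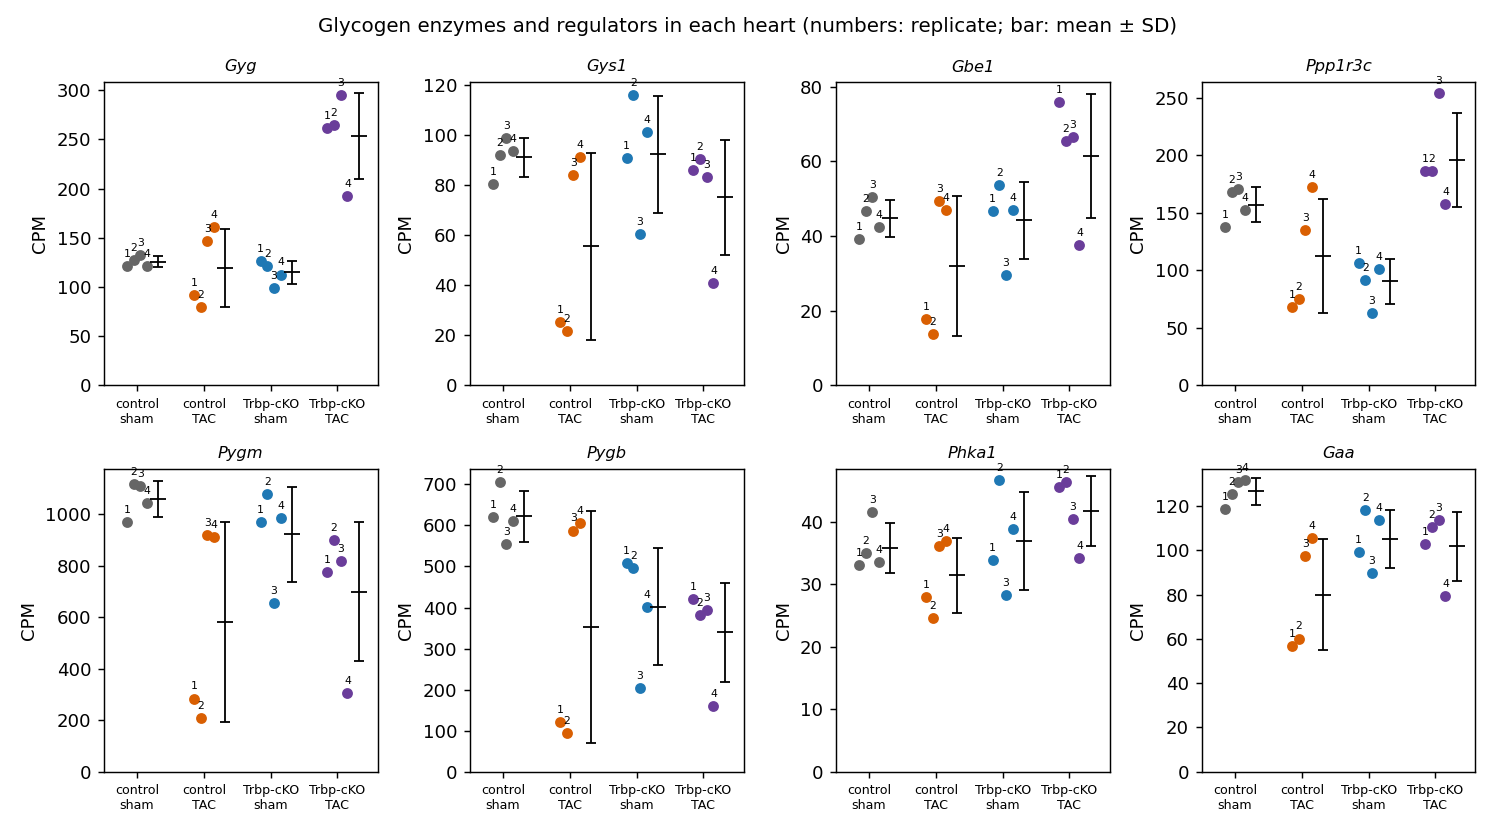
CPM of the 8 enzymes and regulators in each heart, with the replicate number above each point and the mean ± SD of 4 hearts beside each group, on linear axes from 0. Control TAC hearts 1 and 2 are low in most panels, and Gyg is above 190 CPM only in Trbp-cKO TAC hearts.

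Taking the 8 enzymes and regulators by comparison, 1 of 8 (Gaa) fell with TAC in control hearts and none rose, where 6.29% of all genes tested passed in either direction. For 2 of 8 (Pygm and Gaa) the groups did not overlap, as for 17.4% of all genes. All 8 differences were below 0, with a median of -0.57 against 0.02 over all genes. With control TAC hearts 1 and 2 left out, none passed and the median was -0.05. Between Trbp-cKO TAC and control TAC hearts 1 of 8 (Gyg) rose, where 5.53% of all genes passed, and it was also the 1 gene without overlap, against 10.0% of all genes. Here 7 of 8 differences were above 0 and the median was 0.42 against -0.01. With control TAC hearts 1 and 2 left out the median was 0.085, and Gys1, Pygm and Gaa changed sign. Leaving out 1 heart, it was 0.26 without control TAC heart 2 and 0.68 without control TAC heart 4. Since Stbd1 was chosen on these 2 comparisons, nothing further is read from the counts.

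With TAC in Trbp-cKO hearts, 2 of 8 (Gyg and Ppp1r3c) rose and none fell, where 9.94% of all genes passed. The same 2 genes did not overlap between the groups, against 17.2% of all genes. Here 4 differences were above 0 and 4 below, and the median was 0.06. Between the sham groups none of the 8 passed, where 1.68% of all genes passed. For 3 (Ppp1r3c, Pygb and Gaa) the sham groups did not overlap, against 14.7% of all genes. At an unadjusted p under 0.05 the edgeR fit held 1 of them (Ppp1r3c), and DESeq2 also called none. In the interaction none passed by edgeR, where 1.05% of all genes passed, and 3 were under 0.05 before adjustment. DESeq2 called 2 of the 8 (Gyg and Ppp1r3c), and 899 over all genes. Leaving out control TAC heart 4 or Trbp-cKO TAC heart 4 also gave Gyg and Ppp1r3c in edgeR, and leaving out control TAC heart 3 gave Gyg. Each group of hearts enters more than 1 comparison, so the counts are not independent of each other.

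**Figure D3:**
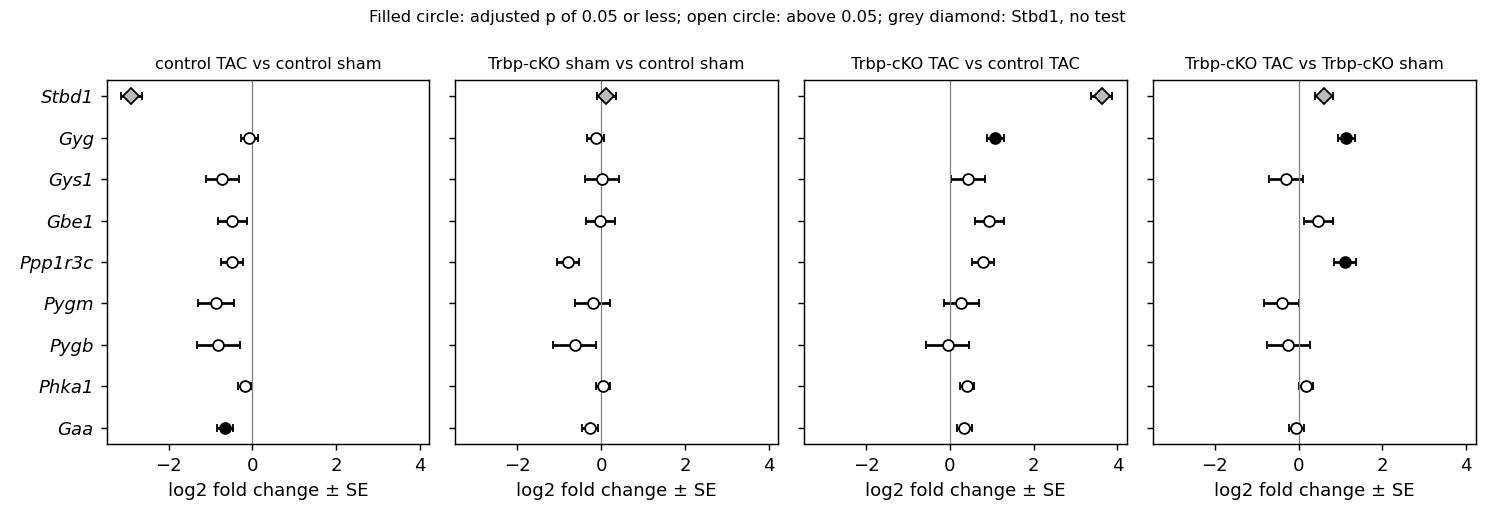
Log2 fold change ± SE of the 9 members in each of the 4 comparisons, with filled circles at an adjusted p of 0.05 or less and a grey diamond for Stbd1, for which no p is given. Stbd1 lies at -2.89 and 3.62 in the comparisons that involve control TAC hearts, and the filled circles are Gaa in the first, Gyg in the third, and Gyg and Ppp1r3c in the fourth panel.

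The members followed the cardiomyocyte marker sum to different degrees. Per 100000 CPM of these markers, Pygm lay between 1729 and 1842 in control sham hearts and at 1105, 1021, 1713 and 1688 in control TAC hearts, so that hearts 1 and 2 were lower on this scale too. On the same scale Gyg lay between 208 and 221 in control sham hearts and between 273 and 389 after TAC, and Trbp-cKO hearts held 203 to 235 after sham surgery and 482 to 602 after TAC, with no overlap between either TAC group and any other group. Ppp1r3c lay between 245 and 283, between 251 and 368, between 136 and 197 and between 339 and 502 in the same order of groups. These ratios describe the hearts, and the part of the cell mixture in each difference was not tested.

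**Figure D4:**
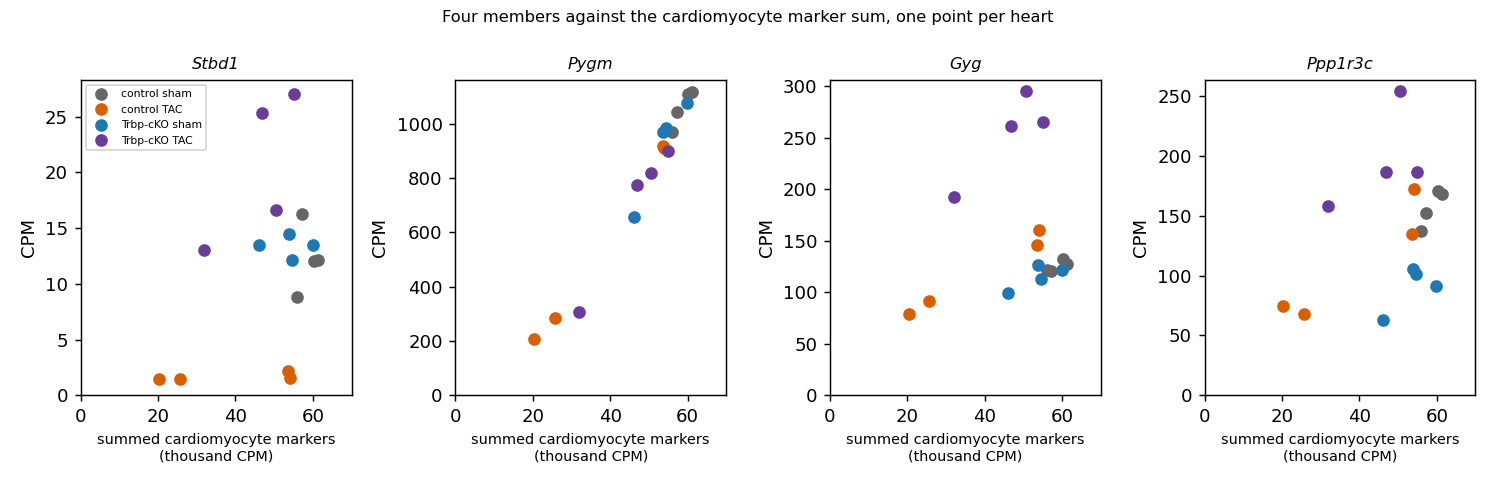
CPM of Stbd1, Pygm, Gyg and Ppp1r3c against the summed CPM of 8 cardiomyocyte markers, 1 point per heart, coloured by group, on linear axes from 0. Pygm is low in each heart with low markers, whereas the 4 control TAC hearts hold at most 2.19 CPM of Stbd1 at marker sums from 20314 to 54008.

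The wider pathway was covered by 35 more genes, of which all but Gys2 were tested. With TAC in control hearts 2 of 34 fell and none rose, where 6.29% of all genes passed, which is near the share in the list. The median was -0.35 against 0.02 over all genes. These were Phkg1, the muscle catalytic subunit of phosphorylase kinase (-1.44, SE 0.31, adjusted p = 0.0166 by edgeR), and Prkab1, a beta subunit of the energy sensor AMPK (-0.53, SE 0.13, adjusted p = 0.0278). Both also fell with TAC in Trbp-cKO hearts, Phkg1 by 1.52 (SE 0.31, adjusted p = 0.0057) and Prkab1 by 0.56 (SE 0.13, adjusted p = 0.0119). With the clock score as a covariate neither passed in control hearts, and Phkg1 did not pass in Trbp-cKO hearts. In control hearts no gene of this list passed without control TAC heart 1, and 7 passed without control TAC heart 4.

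Phkg1 was at 28.7, 28.0, 32.3 and 21.7 CPM in control sham and at 6.76, 5.03, 17.7 and 11.2 CPM in control TAC hearts. It was at 19.9, 19.2, 15.9 and 26.1 CPM in Trbp-cKO sham and at 4.89, 6.31, 7.93 and 9.10 CPM in Trbp-cKO TAC hearts. TAC and sham hearts did not overlap in control or in Trbp-cKO mice, and the interaction was -0.08 (SE 0.43, adjusted p = 0.950 by edgeR). Phkg1 shares 630 exonic bases with Sumf2 on the opposite strand.

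Between Trbp-cKO TAC and control TAC hearts 3 of the 34 rose and 1 fell, where 5.53% of all genes passed, and the median was 0.28 against -0.01 over all genes. Prkag2, the AMPK gamma subunit whose mutations cause a glycogen storage heart disease, rose by 0.84 (SE 0.17, adjusted p = 0.0109 by edgeR). It was at 14.1, 15.3, 23.1 and 20.8 CPM in control TAC and at 29.6, 28.5, 36.3 and 36.8 CPM in Trbp-cKO TAC hearts, without overlap. Gabarapl1, the ATG8-family protein described as the partner of Stbd1 in glycophagy, rose by 0.79 (SE 0.18, adjusted p = 0.0191).

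Gabarapl1 was at 117, 108, 131 and 120 CPM in control sham hearts and at 72.9, 67.5, 106 and 120 CPM after TAC. Trbp-cKO hearts held 127, 141, 129 and 122 CPM after sham surgery and 186, 171, 160 and 118 CPM after TAC. The TAC groups overlapped in 1 heart on each side. Lamp1, a lysosomal membrane protein, rose by 0.68 (SE 0.19, adjusted p = 0.0499 by edgeR), and Pgm2l1, a glucose 1,6-bisphosphate synthase, fell by 0.52 (SE 0.11, adjusted p = 0.0128). Without control TAC hearts 1 and 2 none of these 4 passed, with differences of 0.57 for Prkag2, 0.48 for Gabarapl1, 0.33 for Lamp1 and -0.32 for Pgm2l1, and Phkg1 passed instead (-1.05). With 1 heart left out, 2 of the 34 passed without control TAC heart 1 or 2 or Trbp-cKO TAC heart 1, and 8 without control TAC heart 4. In these fits Lamp1 passed only without control TAC heart 3 or 4 or Trbp-cKO TAC heart 4. It did not pass with the replicate block either. Gabarapl1, Lamp1 and Prkag2 each share exonic bases with a gene on the opposite strand.

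Of the 8 lysosomal and glycophagy genes, Gaa included and Stbd1 left out, all 8 lay below 0 with TAC in control hearts (median -0.38) and all 8 above 0 between Trbp-cKO TAC and control TAC hearts (median 0.34), though 1 and 2 of them passed, where 6.29% and 5.53% of all genes did. The 8 cardiomyocyte markers had medians of -0.59 and 0.25 in the same comparisons, which share the control TAC hearts. Without control TAC hearts 1 and 2 none of the 8 lysosomal and glycophagy genes passed in either comparison, and Gaa changed sign between TAC groups. The part of the cell mixture in these signs was not tested. Between the sham groups no gene of the wider list passed by edgeR, where 1.68% of all genes did, and none by DESeq2. Before adjustment 1 was under 0.05 by edgeR. With TAC in Trbp-cKO hearts 1 rose and 2 fell, close to the 9.94% of all genes that passed. The riser was Prkab2, the beta subunit that predominates in muscle, which rose by 0.73 (SE 0.15, adjusted p = 0.0049 by edgeR) from 44.0, 53.0, 37.4 and 52.5 CPM to 75.2, 84.8, 72.3 and 78.4 CPM. In the interaction none passed by edgeR, where 1.05% of all genes passed, and 5 were under 0.05 before adjustment. DESeq2 called 2 of the list, and 899 over all genes.

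**Figure D5:**
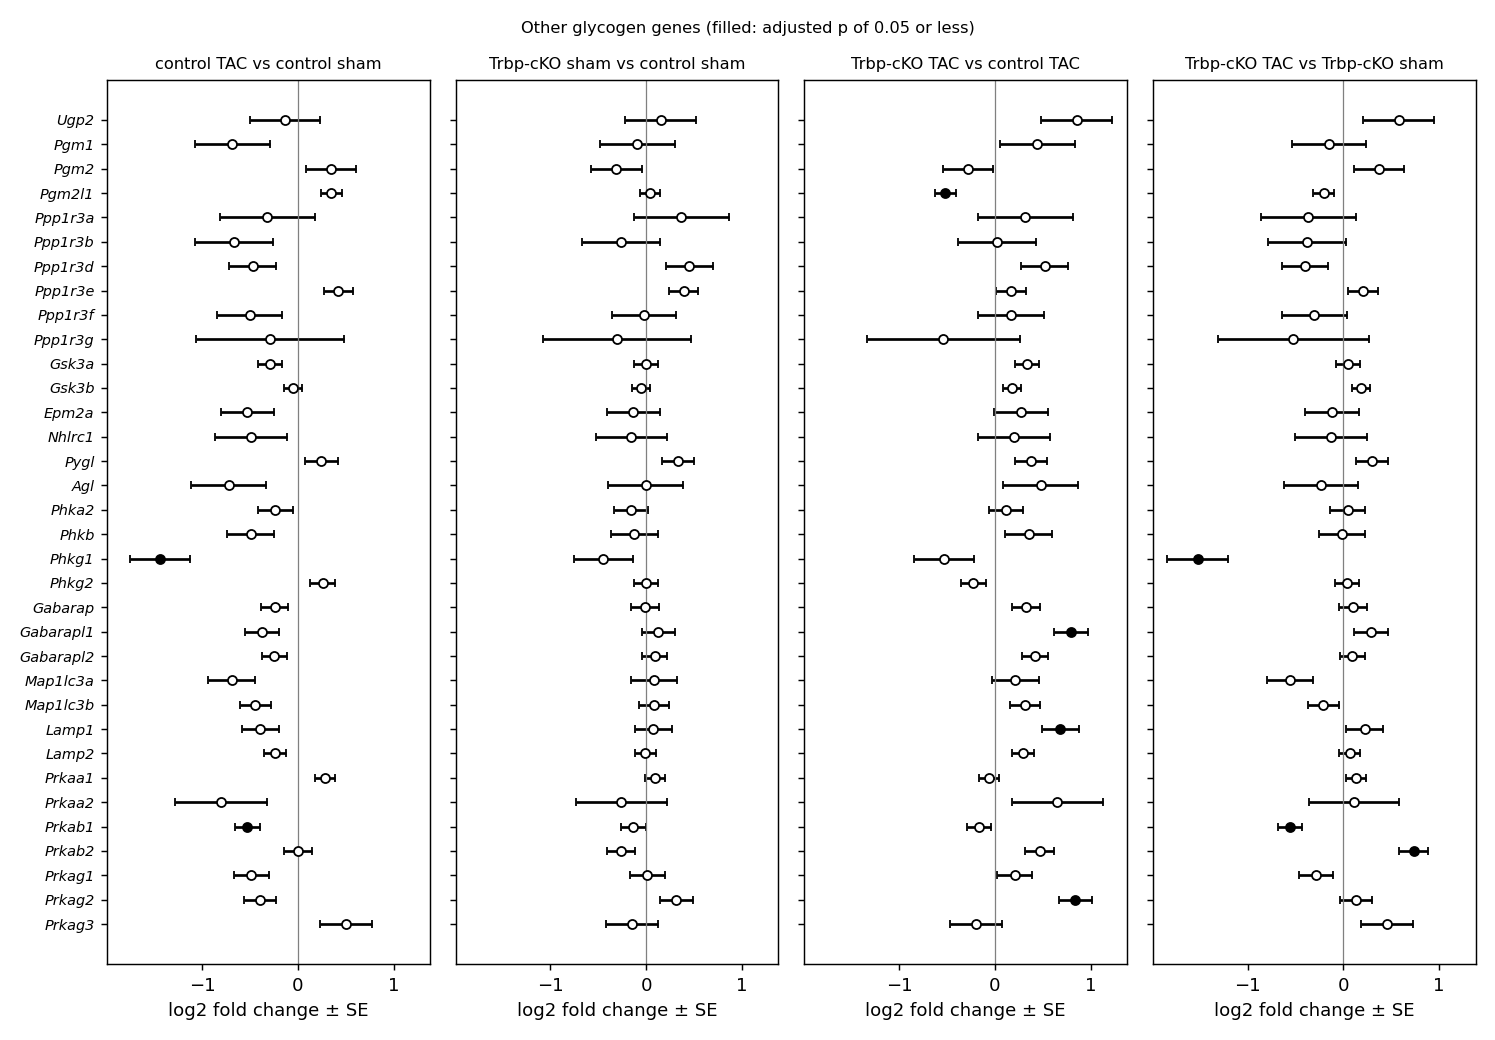
Log2 fold change ± SE of the 34 further glycogen genes tested, in the 4 comparisons, with filled circles at an adjusted p of 0.05 or less. Phkg1 is at -1.44 and -1.52 with TAC in control and in Trbp-cKO hearts, and Prkab2 is filled only in the last panel, at 0.73.

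Of 13082 genes with a symbol and a mean log2 CPM of at least 1, Lrrc27 had the pattern most like that of Stbd1 over the 16 hearts (Pearson r = 0.91 of log2 CPM), followed by Colq (0.90), Gstm2 (0.89), Cerk (0.88) and Nrtn (0.88). Colq had means of 12.1 and 4.24 CPM in control hearts after sham surgery and TAC, and of 17.0 and 15.6 CPM in Trbp-cKO hearts. The most opposite patterns were those of Cit (-0.85), BC005561 (-0.83), Cep192 (-0.82), Ehmt1 (-0.81) and Mcc (-0.81). The hearts of a group share their treatment, so these values include the differences between group means. Within groups, r was 0.65 for Lrrc27, 0.11 for Colq, -0.22 for Gstm2, 0.62 for Cerk and 0.065 for Nrtn, and it was -0.74 for Cit and between -0.42 and -0.24 for the other 4 opposite genes. By that measure Lrrc27 had rank 255 among the 13082 genes. Genes closer to Stbd1 within groups included Mkrn1 (0.86), F13a1 (0.85) and H2-Ke6 (0.85). Among the members, Gbe1 was the most like Stbd1 (r = 0.67) and Pygb the least (r = 0.37) over the 16 hearts, whereas within groups Pygm was the most like it (r = 0.54, with 0.48 for Gbe1) and Ppp1r3c the least (r = 0.22, with 0.45 for Pygb).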

How the data were processed

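Polyadenylated RNA from each of the 16 ventricles was sequenced by the authors as paired reads, trimmed with Cutadapt 2.3, aligned to GRCm38 with HISAT2 2.1.0 and quantified with StringTie 1.3.4. The deposited values are whole-number counts per gene and heart that the authors derived from StringTie's coverage. The read length assumed in that step, the annotation release and the use of strand are not given in the sources used here, so halved counts were also fitted. Symbols, positions and exon lengths came from GENCODE M21.

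Counts were analysed with edgeR 4.0.16 in R 4.3.3: default filter on low counts, TMM scaling and 1 robust quasi-likelihood model in which each group had its own coefficient and all 16 hearts entered. P-values were adjusted by the Benjamini-Hochberg method over 19955 genes, and 0.05 was the threshold. The study's own methods name an exact test with an added fold threshold of 0.8 on the log2 scale; both were alternatives. CPM of members other than Stbd1 also went through an exact permutation test, two-sided, over 70 assignments. DESeq2 was another alternative. Each library was 1 mouse. The total counts of 45166994 to 68274222 per heart put at least 78 counts behind each value of a member.

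The members and lists were chosen with earlier results of these data known. Further genes are named where they passed in any comparison, and genes like Stbd1 are the 5 highest and the 5 lowest by Pearson r. Promoter windows came from RefSeq.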

Additional observations from a re-analysis of the deposited data

Results flagged for a closer look

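Of 36 sets of 4 hearts (9 members in 4 groups), 3 held a heart that stood far from the rest by Dixon's criterion, where chance gives about 1 in 20. Stbd1 was highest among control TAC hearts in replicate 3, at 2.19 CPM, with the next heart at 1.53 CPM. Gys1 was lowest among Trbp-cKO TAC hearts in replicate 4, at 40.7 CPM, with the next heart at 83.2 CPM. Pygb was lowest in the same heart, at 161 CPM, with the next at 381 CPM. The cardiomyocyte marker sum of that heart was also the lowest of its group, at 31942 CPM, and its part in the values was not tested.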

How the results depend on the processing

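Over the 8 enzymes and regulators in 5 comparisons, 988 of 1064 values from other settings kept their direction and their side of the threshold, 21 lost the call, 19 gained it and 36 changed sign. Most of these values belonged to results that were not past the threshold in the main fit and so had no call to lose. Gaa with TAC in control hearts lost its call in 19 of 27 settings. The cause was not tested in any case. With the longest transcript as the length, 6 of 9 levels per kilobase moved by more than their spread. The longest transcript is never longer than all exons together, so a level could only stay or rise. Gyg passed with TAC in Trbp-cKO hearts under all settings tried. Stbd1 kept its sign in the comparisons with control TAC hearts under all settings. With the clock score as a covariate Stbd1 was at -3.48 (control TAC against control sham), -0.79 (sham groups), 1.08 (Trbp-cKO TAC against Trbp-cKO sham) and 4.56 (interaction, 3.50 without it), 1 enzyme passed with TAC in Trbp-cKO hearts, 5 further genes (Nhlrc1, Gabarapl1, Map1lc3a, Map1lc3b and Prkag1) passed with TAC in control hearts in place of Phkg1 and Prkab1, and values changed sign for Gys1 (-0.95) and Phka1 (-0.34) between sham groups, for Gys1 (0.25), Pygb (0.36), Pygm (0.14) and Gaa (0.16) with TAC in Trbp-cKO hearts and for Pygb (0.29) between TAC groups.

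With control TAC hearts 1 and 2 left out, signs changed with TAC in control hearts for Gbe1 (0.10), Gyg (0.29) and Phka1 (0.027), between TAC groups for Gys1 (-0.23), Pygm (-0.40) and Gaa (-0.0093), and in the interaction for Gys1 (-0.24), Pygm (-0.19) and Pygb (-0.19). There 0 enzymes and 0 further genes passed with TAC in control hearts, 1 enzyme passed between sham groups and 1 further gene between TAC groups. With library size only, Gbe1 was at 0.078 between sham groups and Pygb at 0.061 between TAC groups. Under that setting 0 enzymes passed with TAC in control hearts. Between TAC groups 3 enzymes (Gyg, Ppp1r3c and Phka1) and 8 further genes passed.

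DESeq2 called 2 enzymes between TAC groups, 2 enzymes and 2 further genes in the interaction and 5 further genes with TAC in control hearts. Halved counts and a minimum of 1 CPM in 4 or more hearts each gave 2 enzymes in the interaction, and no filter gave 0 enzymes with TAC in control hearts. Fitting only the groups compared gave 0 enzymes and 0 further genes with TAC in control hearts and between TAC groups, where Gyg lost its call, and 1 enzyme (Ppp1r3c) between sham groups. The exact test of edgeR gave 0 enzymes with TAC in control hearts, 1 between sham groups and 1 further gene between TAC groups. A fold threshold of 0.8 left 0 enzymes and 1 further gene with TAC in control hearts, and 1 further gene in each of the comparisons of Trbp-cKO TAC hearts.

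The replicate numbers did not pair the hearts: over 24 pairs with the same number the correlation of deviations ran from -0.27 to 0.31. With the replicate block, 0 enzymes and 1 further gene passed with TAC in control hearts and 2 further genes between TAC groups, while Gbe1 was at 0.0067 between sham groups and Pygb at 0.019 between TAC groups. Only 5 of 16 hearts correlated best with their own number.

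Leaving out 1 heart at a time, enzymes past the test ranged from 0 to 2 with TAC in control hearts, from 1 to 2 between TAC groups and from 0 to 2 in the interaction. The further genes ranged from 0 to 7, from 2 to 8 and from 0 to 2. With TAC in control hearts the fewest further genes passed without control TAC heart 1. Between TAC groups the fewest passed without control TAC heart 1 or 2 or Trbp-cKO TAC heart 1, at 2 each. In both comparisons the most passed without control TAC heart 4. Values spanned 0 for Gyg with TAC in control hearts (-0.25 to 0.076), for Stbd1 (-0.018 to 0.28), Gys1 (-0.11 to 0.17), Gbe1 (-0.12 to 0.13) and Phka1 (-0.089 to 0.15) between sham groups, for Pygm (-0.020 to 0.57) and Pygb (-0.38 to 0.34) between TAC groups and for Gaa with TAC in Trbp-cKO hearts (-0.12 to 0.052). Over all genes, calls with TAC in control hearts numbered 1256 and ran from 149 (hearts 1 and 2 left out) to 2871 (without control TAC heart 4). Between the sham groups they numbered 336 and ran from 4 (clock score) to 1652 (exact test). Between TAC groups they numbered 1103 and ran from 96 (only the groups compared) to 2113 (DESeq2). With TAC in Trbp-cKO hearts they numbered 1983 and ran from 865 (clock score) to 3070 (hearts 1 and 2 left out), and in the interaction 209, from 7 (clock score) to 899 (DESeq2). The depth behind Stbd1 in control TAC hearts was 78 to 132 counts.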
